A study of Mus musculus with 9 samples.

Results

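The 9 genes described here are members of a pair of families that are known to be switched on by cytokine receptors: Socs2, Socs3, Socs5, Socs6, Socs7 and Cish of the suppressors of cytokine signalling, and the kinase genes Pim1, Pim2 and Pim3. They were taken by symbol, and all 9 were found among the 24015 rows of each of the authors' deposited tables. The tissue was the dentate gyrus, the input region of the hippocampus, dissected from wild-type C57BL/6 mice aged 8 weeks. Each of 9 libraries of total RNA came from 1 mouse, and the groups, named E0, E1 and E4, had 3 mice each. The stated question is what neuronal activation does to RNA and chromatin in the adult brain. The labels name no agent and do not say what the number behind the letter counts. From what is known of the study, E0 mice were not stimulated and the other groups were taken at later times after electroconvulsive stimulation, which drives granule neurons to fire together.

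As background, cytokines and hormones such as leptin, growth hormone and the interleukin 6 family act through receptors that carry Janus kinases (Jak), which phosphorylate Stat transcription factors. Stat factors switch on the genes of Cish, Socs2 and Socs3, whose proteins bind the receptor or the kinase through an SH2 domain and recruit a ubiquitin ligase through the SOCS box, which closes a negative feedback loop. Socs5, Socs6 and Socs7 have a long N-terminal part and are known mostly for acting on receptor tyrosine kinases and insulin receptor substrates. The Pim kinases are serine/threonine kinases that need no activating phosphorylation, so their activity follows the amount of protein, which was not measured here. They phosphorylate regulators of survival, the cell cycle and translation, and Pim1 is also an early gene of stimulated neurons.

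Promoter windows of 5 of the 9 members were taken from the RefSeq table for GRCm38.p6. Windows on the chromosome of Socs6 were left out of this choice. These 6 windows of 300 bases were searched for the letters TTCNNNGAA, the palindrome known to be bound by Stat dimers. The same letters occur in 8.30% of all 32851 windows of that length. Among the members searched they were found in Socs3 and Cish, the genes with the best known Stat sites, and those stretches are shown with the matched letters in capitals. The Socs3 stretch holds the 250 bases before the RefSeq start at chr11:117969367-117969616 on the minus strand, with the match at bases -154 to -146. The Cish stretch runs from base -4 to base 26 at chr9:107296655-107296684 on the plus strand, with matches at bases 1 to 9 and 12 to 20 counted from the RefSeq start as base 1. Both stretches lie inside the GENCODE gene models, which begin farther upstream than the RefSeq starts.
Socs3: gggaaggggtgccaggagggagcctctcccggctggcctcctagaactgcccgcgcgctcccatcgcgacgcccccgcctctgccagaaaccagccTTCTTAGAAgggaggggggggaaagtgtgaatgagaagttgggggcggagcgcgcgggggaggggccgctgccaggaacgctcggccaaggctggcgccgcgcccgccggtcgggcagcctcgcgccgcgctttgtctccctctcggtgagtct
Cish: agttTTCCTGGAAagTTCTTGGAAatctgt
A match of letters is a description and not a site. None of the 6 windows holds TGACGTCA or TGANTCA, the letters of the cAMP response element and of the AP-1 site, which occur in 1.79% and 7.81% of all windows. These 3 motifs read the same on both strands.

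The deposited tables give for each gene a mean normalised count over the libraries of a comparison, a log2 fold change over E0 with its standard error (SE), and a p-value adjusted over all genes. Both tables share the 3 E0 libraries. The read counts of single libraries were worked out from the whole-number steps that reads leave in both mean counts, which gave 1 solution for 9885 of 13678 genes considered and for 7 of the 9 members. Another 3727 of these genes had too many reads for solutions to be told apart and were not tried. Socs5 and Socs7 were among them. Log2 ratios of the recovered group means differed from the deposited log2 fold changes by a median of 0.0103 for E1 (369 genes with an SE below 0.15) and 0.00723 for E4 (3028 genes). The search for solutions was centred on the deposited log2 fold changes, so this likeness is in part built in. All 7 recovered members had larger SEs in E1. Their log2 ratios in E1 were 4.87 beside a deposited 4.36 for Pim1, 2.13 beside 1.32 for Socs3 and 1.56 beside 1.51 for Pim3. Recovered libraries are known by group and by depth but not by mouse number, so they are called the deepest, the middle and the shallowest. The E0 libraries held about 6140000 to 10960000 reads, the E1 libraries 1940000 to 4760000 and the E4 libraries 10020000 to 13550000, so the E1 values rest on the fewest reads.

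Markers of granule neurons, the principal cells of the dentate gyrus, were read beside the tissue label. In E4 and E0 together, the authors' deposited table lists mean counts of 2680 for Prox1 and 3153 for C1ql2. The interneuron gene Gad1 has 3541 there and the astrocyte gene Gfap 6475. No other tissue was at hand, so these counts do not test the label. All 6 granule neuron markers were lower in E1 than in E0 by the authors' adjusted p, whereas 5 of 6 markers of GABAergic interneurons, 2 of 5 of pyramidal and mossy cells, 2 of 5 of endothelial cells and 1 of 4 of mural cells were higher. In E4, 3 of the granule neuron markers were higher and 3 were lower. The summed recovered reads of 3 interneuron markers lay between 465 and 469 in E0, between 990 and 1055 in E1 and between 383 and 423 in E4. Those of 5 endothelial markers ranged from 346 to 793 in E0, from 820 to 1268 in E1 and from 459 to 548 in E4. Those of 4 pyramidal and mossy cell markers ranged from 825 to 1136 in E0, from 1358 to 1599 in E1 and from 1183 to 1729 in E4. Neither later group overlapped E0, as was so in whichever direction for 48.7% of 9884 single genes in E1 and 48.4% in E4. In E4 only Fibcd1 of these markers lay above E0, with 250 to 382 in E0 and 675 to 1114 in E4. Wfs1 lay below E0 in E4, and Man1a and Ociad2 overlapped E0. Of the 5 markers of these cells 1 was lower in E1, and 1 was higher and 1 lower in E4. Of 6 astrocyte markers 3 were lower in E1 and none was higher, and of 5 oligodendrocyte markers 2 were lower and 1 was higher. Of 6 microglia markers none was higher and 1 was lower in E1. The defining red blood cell genes Hba-a1 and Hbb-b1 are listed at 0 in both tables. The part of these shifts in the results for the Socs and Pim genes was not tested, and in whole tissue fewer cells of a type and less RNA per cell cannot be told apart.

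In E1 against E0, Pim1, Socs2, Pim3, Socs3 and Socs7 rose, Pim2 fell, and Cish, Socs5 and Socs6 did not pass the test. This is 5 raised and 1 lowered of 9, where 20.6% of the 15660 genes tested were raised and 15% were lowered at an adjusted p below 0.05. In E4 against E0, 6 members rose (Pim1, Pim2, Socs2, Socs3, Socs7 and Pim3), none fell and the same 3 did not pass. Of 14455 genes tested in that comparison, 20.7% were raised and 18.3% lowered. The median log2 fold change of the 9 members was 0.48 in E1, beside 0.02 over all genes tested, and 0.44 in E4, beside -0.01. The members were chosen with results of these data known, so these counts are a description. The comparisons share the E0 mice, and their values are therefore set side by side without a test of likeness.

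**Figure D1:**
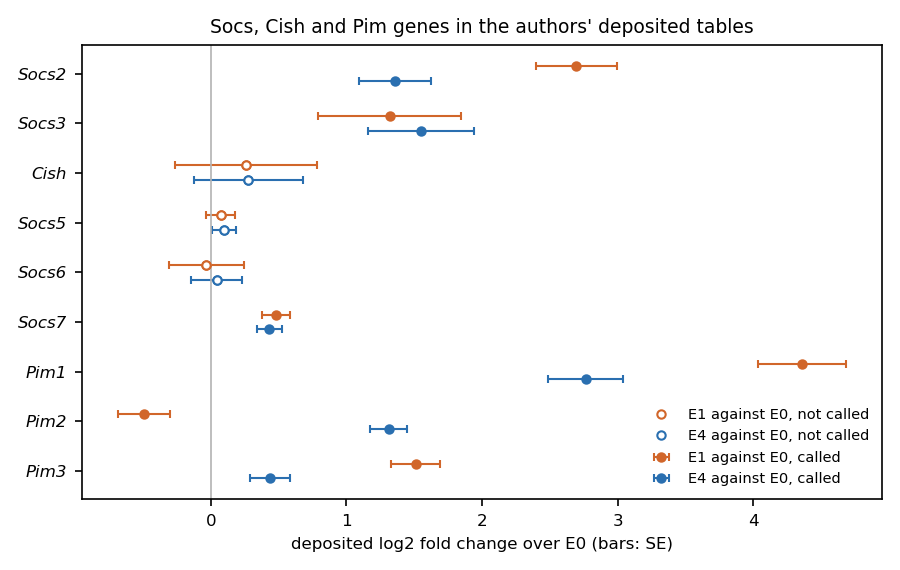
Log2 fold change over E0 of the 9 genes in the authors' deposited tables, with E1 in orange, E4 in blue and bars of 1 SE. Filled points passed an adjusted p below 0.05 and open points did not. Pim1 lies farthest to the right at both times, and Pim2 is the one gene on opposite sides of 0 with both points filled.

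Pim1 encodes the founding member of the kinase family and was the most strongly raised of the 9 in both comparisons. Its normalised reads in the deepest, middle and shallowest library were 22.1, 10.7 and 11.0 in E0, 647, 374 and 259 in E1, and 116, 152 and 130 in E4. The 3 groups did not overlap, and every E1 library stood above every E4 library. The group means were 14.6 ± 6.49 (SD, n = 3) in E0, 427 ± 200 in E1 and 133 ± 18.0 in E4. Against E0, the log2 fold change in E1 was 4.36 ± 0.32 (SE) in the authors' deposited table, a 20.5-fold rise with an adjusted p of 3.09e-39 by DESeq2, which placed Pim1 at rank 150 of 15660 genes from the highest. For E4 the authors' deposited table gives 2.77 ± 0.28, a 6.80-fold rise with an adjusted p of 5.57e-22, at rank 35 of 14455. Ratios of the recovered means were larger, 29.2 in E1 and 9.09 in E4.

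Pim1 lies at chr17:29490753-29496112 on the plus strand of GRCm38. Its gene model overlaps the antisense gene Gm26885 there. Whether strand was used in counting is not given in the sources used here, so reads of both could not be told apart.

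Pim2, a kinase best known from lymphoid cells and like its relatives a promoter of cell survival, took the opposite course at the first time. Its normalised reads were 361, 548 and 525 in E0, 355, 299 and 353 in E1 and 1080, 1267 and 1279 in E4. All E1 libraries lay below all E0 libraries, though the lowest E0 library, at 361, was close to the highest E1 library, at 355. All E4 libraries lay far above both. The means were 478 ± 102 (SD, n = 3), 336 ± 31.8 and 1209 ± 112. The authors' deposited table for E1 gives a log2 fold change of -0.49 ± 0.19 (adjusted p = 0.0311 by DESeq2), and that for E4, also the authors' deposited table, gives 1.31 ± 0.14, a 2.48-fold rise (adjusted p = 3.48e-20).

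The fall of Pim2 in E1 was the least firm of its differences. In a limma fit to the recovered reads its adjusted p was 0.0347, and it rose to between 0.0619 and 0.163 when any 1 of the E1 libraries, the middle E0 library or the shallowest E0 library was left out. The rule for accepting recovered reads was set after the data had been seen, and Pim2 is the member closest to its limit, so its values by library are less certain than those of the other genes. Pim2 lies at chrX:7878262-7883432 on the plus strand.

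Pim3, a kinase first described in neural cells as induced by depolarisation, had normalised reads of 215, 237 and 180 in E0, 723, 509 and 627 in E1 and 300, 271 and 297 in E4. Each E1 library was above each E4 library, and each E4 library was above each E0 library. The means were 210 ± 28.6 (SD, n = 3), 619 ± 107 and 289 ± 16.0. The authors' deposited table for E1 gives a log2 fold change of 1.51 ± 0.18, a 2.85-fold rise (adjusted p = 1.07e-15 by DESeq2). The rise in E4 was small, with a log2 fold change of 0.44 ± 0.15, 1.36-fold and an adjusted p of 0.00965 in the authors' deposited table. Without the shallowest E0 library the limma fit gave 0.37 with an adjusted p of 0.0544. Pim3 lies at chr15:88862186-88865726 on the plus strand.

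Socs2, which restrains growth hormone receptor signalling and is known in neural cells for its part in neurite growth, was the most strongly raised suppressor gene in E1. Its normalised reads were 20.3, 33.0 and 44.2 in E0, 191, 328 and 209 in E1 and 78.6, 91.9 and 99.5 in E4. The groups did not overlap, with E1 the highest and E0 the lowest. The means were 32.5 ± 11.9 (SD, n = 3), 242 ± 74.4 and 90.0 ± 10.6. The authors' deposited table for E1 gives a log2 fold change of 2.70 ± 0.30, a 6.48-fold rise (adjusted p = 1.04e-17 by DESeq2). In the authors' deposited table for E4 it was 1.36 ± 0.27, a 2.56-fold rise (adjusted p = 2.74e-06 by DESeq2). Ratios of the recovered means to E0 were larger, 7.46 in E1 and 2.77 in E4. Socs2 lies at chr10:95385362-95417180 on the minus strand.

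Socs3, the feedback inhibitor of receptors that signal through gp130 and of the leptin receptor, was rarely read, with 18 reads over the 3 E0 libraries, 25 in E1 and 109 in E4. Its normalised reads were 3.53, 8.52 and 9.46 in E0, 16.2, 8.63 and 69.6 in E1 and 37.2, 36.9 and 17.4 in E4. The E4 libraries were all above the E0 libraries, whereas the E1 libraries spanned from the E0 level to above every E4 library. The means were 7.17 ± 3.19 (SD, n = 3), 31.5 ± 33.2 and 30.5 ± 11.3. For E4 the authors' deposited table gives a log2 fold change of 1.55 ± 0.39, a 2.93-fold rise (adjusted p = 0.00036 by DESeq2). The authors' deposited table for E1 gives 1.32 ± 0.52, a 2.49-fold rise (adjusted p = 0.0361 by DESeq2). Ratios of the recovered means to E0 were larger, 4.39 in E1 and 4.25 in E4.

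The rise of Socs3 in E1 did not pass in the limma fit to the recovered reads, which gave a log2 fold change of 1.55 ± 0.68 (SE) with an adjusted p of 0.0736. Without the shallowest E1 library, which held 14 of the 25 reads, it gave 1.01 with an adjusted p of 0.278, and without the deepest E0 library 1.05 with an adjusted p of 0.292. Without the middle E1 library it gave 2.02 with an adjusted p of 0.0308. For E4 the same fit gave 2.15 ± 0.55 (adjusted p = 0.00417), which became 1.65 (adjusted p = 0.0533) without the deepest E0 library. Socs3 carries 1 copy of the Stat palindrome in the stretch printed above, within the gene model at chr11:117966079-117970047.

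Cish, the founding suppressor gene and a classical target of Stat5, had 30 reads in E0, 15 in E1 and 52 in E4. Its normalised reads were 9.72, 12.8 and 11.0 in E0, 8.12, 25.9 and 9.95 in E1 and 17.9, 18.0 and 7.73 in E4. The 3 groups overlapped. The authors' deposited tables give log2 fold changes of 0.26 ± 0.53 in E1 (adjusted p = 0.751 by DESeq2) and 0.28 ± 0.40 in E4 (adjusted p = 0.640). The 95% intervals, from -0.77 to 1.29 and from -0.51 to 1.07, include changes as large as that of Pim3 in E4, so at this depth such a change was not detectable. Cish lies at chr9:107296026-107302784 on the plus strand and overlaps the antisense gene Gm17041 and the transcribed processed pseudogene Gm17040. Reads of both could not be told apart from its own.

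**Figure D2:**
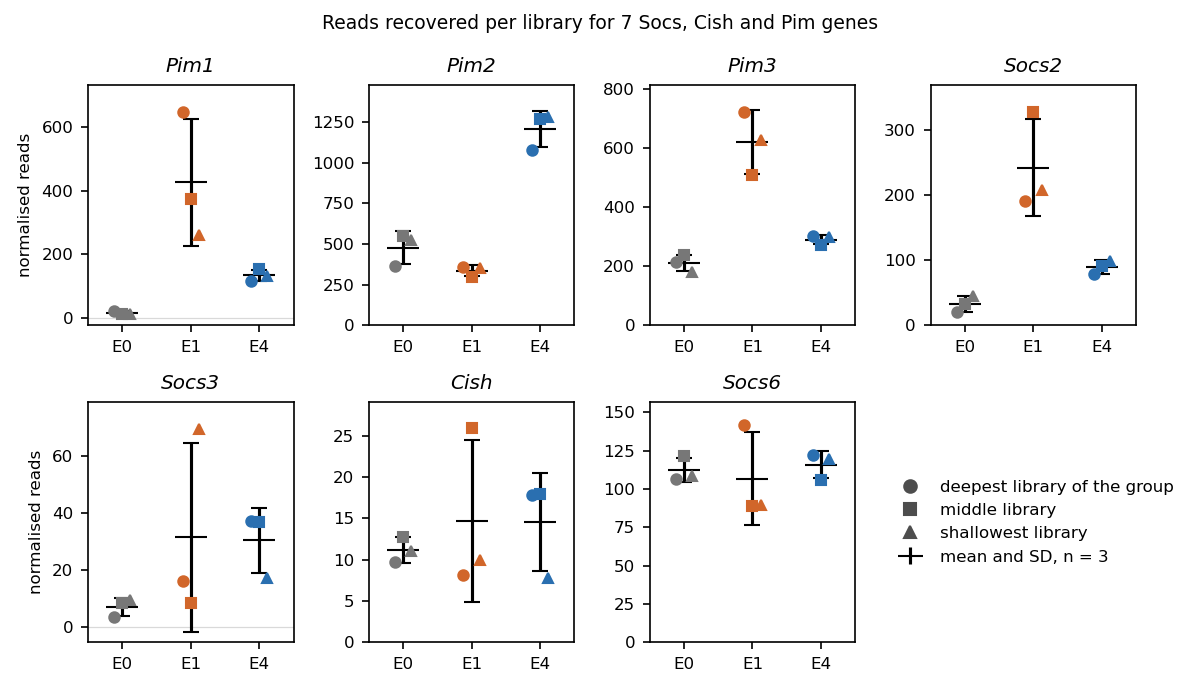
Normalised reads of 7 genes in each library of E0, E1 and E4 on a linear axis that differs between panels. Circles, squares and triangles are the deepest, middle and shallowest library of a group, and black marks are the mean and SD of 3 libraries. Pim1, Pim3 and Socs2 peak in E1, Pim2 peaks in E4, and the E1 libraries of Socs3 spread from 8.63 to 69.6.

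Of the 3 suppressors with a long N-terminal part, 1 moved. Socs7, known to bind insulin receptor substrate and adaptor proteins, rose in E1, where the authors' deposited table gives a log2 fold change of 0.48 ± 0.10 (1.40-fold, adjusted p = 2.1e-05 by DESeq2). The rise was 0.43 ± 0.09 in the authors' deposited table for E4 (1.35-fold, adjusted p = 1.9e-05). Its reads by library were not recovered, and the mean counts implied by the deposited tables on the E4 scale were 1352 in E0, 1888 in E1 and 1821 in E4. Socs7 lies at chr11:97362551-97398542 on the plus strand.

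Socs5, described as an inhibitor of interleukin 4 and epidermal growth factor receptor signalling, did not pass the test at either time. Its log2 fold changes in the authors' deposited tables were 0.07 ± 0.11 in E1 (adjusted p = 0.660 by DESeq2) and 0.10 ± 0.09 in E4 (adjusted p = 0.421). The implied mean counts were 1288 in E0, 1353 in E1 and 1378 in E4. With 95% intervals from -0.14 to 0.28 and from -0.08 to 0.27, a change of the size of that of Socs7 lay outside both. Socs5 lies at chr17:87107679-87137839 on the plus strand.

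Socs6, which acts on the insulin receptor and the Kit receptor, had normalised reads of 107, 121 and 109 in E0, 142, 89.1 and 89.5 in E1 and 122, 106 and 120 in E4. The 3 groups overlapped. Its log2 fold changes in the authors' deposited tables were -0.03 ± 0.28 in E1 (adjusted p = 0.944 by DESeq2) and 0.04 ± 0.19 in E4 (adjusted p = 0.882). The intervals from -0.58 to 0.51 and from -0.32 to 0.41 are wider than those of Socs5. A change of the size of that of Socs7 lay inside the first and just outside the second. The gene model of Socs6 overlaps processed pseudogenes on both strands. Whether reads there were counted for Socs6 is not given in the sources used here.

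Among the 7 members with recovered reads, 3 lay wholly above E0 in E1, 1 wholly below and 3 overlapped, where 23.7% of 9884 genes lay above and 25.1% below, or 48.7% in either direction. In E4, 5 lay wholly above E0 and 2 overlapped, where 21.6% lay above and 26.9% below, or 48.4% in either direction. The limma fit called 4 of the 7 in E1 and 5 in E4. Of the 9884 genes in that fit, 39.4% were called in E1 (20.9% higher, 18.5% lower) and 36.9% in E4 (16.3% higher, 20.6% lower).

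The change between E1 and E4 was tested on the log2 fold changes of both tables by subtraction, which ignores that both share E0. For Pim1, Socs2 and Socs3 the deposited rises were smaller than the ratios of recovered means, and the subtraction carries this over. Cish was too rarely read to enter. Of the other 8 members, Pim2 was higher in E4 than in E1, Socs2, Pim1 and Pim3 were lower, and 4 did not pass, where 17.7% of 12769 genes were higher and 19% lower, or 36.7% in all. Pim2 was 3.49-fold higher in E4 (log2 difference 1.80 ± 0.24, adjusted p = 5.71e-13). Pim1 was 3.02-fold lower (-1.59 ± 0.43, adjusted p = 0.00096), Socs2 2.53-fold lower (-1.34 ± 0.40, adjusted p = 0.00379) and Pim3 2.10-fold lower (-1.07 ± 0.23, adjusted p = 3.04e-05). In each of these 4 genes the 3 E4 libraries did not overlap the 3 E1 libraries, as was so for 56% of 9884 genes, 26.5% higher and 29.5% lower in E4. All 4 also passed in the limma fit, as did 47.7% of genes, 21.2% higher and 26.5% lower.

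The other 4 genes gave no call between E1 and E4. For Socs7 the log2 difference was -0.05 with a 95% interval from -0.32 to 0.22, and for Socs5 it was 0.03 with an interval from -0.25 to 0.30. For Socs6 it was 0.08 (from -0.58 to 0.74) and for Socs3 0.23 (from -1.05 to 1.52). The last interval runs past 1 log2 unit in both directions, so a change of Socs3 of that size between these times was not detectable at this depth. For Socs3 the limma fit gave 0.60 ± 0.52 (SE), and the recovered means a ratio of 0.968 of E4 to E1. The direction of its estimate thus depends on the method.

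To set the genes against each other, the mean normalised count was divided by the length of the longest protein-coding transcript in GENCODE. In E0 the order was Socs5 with 277 counts per kb, Pim2 with 234 ± 49.8 (SD, n = 3), Socs7 with 193, Pim3 with 86.7 ± 11.8, Socs6 with 18.6 ± 1.31, Socs2 with 14.6 ± 5.37, Pim1 with 5.41 ± 2.41, Cish with 3.92 ± 0.54 and Socs3 with 2.81 ± 1.25. In this order Socs6 and Socs2, Pim1 and Cish, and Cish and Socs3 differed by less than the sum of their SDs, whereas Pim3 and Socs6, and Socs2 and Pim1, differed by more. No SD can be given for Socs5 and Socs7, so their place beside Pim2 was not compared. The 3 genes with the lowest levels included Pim1. In E1 the level of Pim1 was 158 ± 74.0 counts per kb, beside 164 ± 15.6 for Pim2 and 255 ± 44.1 for Pim3. At that time the range of 1 SD of Pim1 overlapped those of both Pim2 and Pim3. In E4 Pim2 had 591 ± 54.7 counts per kb, the highest level of the 9 genes, with Pim3 at 119 ± 6.58 and Pim1 at 49.1 ± 6.67. The mean levels of Cish and Socs3 were at or below 12.3 counts per kb in each of the 3 groups.

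**Figure D3:**
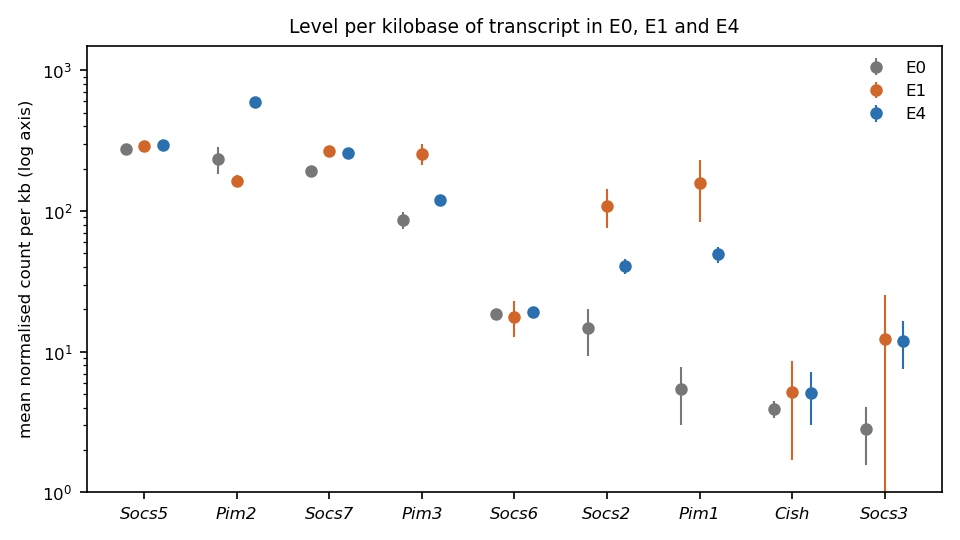
Mean normalised count per kilobase of transcript for the 9 genes in E0, E1 and E4 on a log axis, ordered by the level in E0. Bars are 1 SD over 3 libraries where reads were recovered, Socs5 and Socs7 have none, and the lower bar of Socs3 in E1 runs off the axis because its SD exceeds its mean. The levels of the Pim genes change order between the groups, with Pim2 the highest in E4.

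By distance over the pair of log2 fold changes among 9416 well-read genes, the genes nearest to Pim1 were Egr3 (distance 0.469), Inhba (0.540) and Nptx2 (0.553), 3 genes known as activity-induced in neurons. Egr3 had log2 fold changes of 4.34 in E1 and 2.30 in E4 in the authors' deposited tables. Nearest to Pim2 were Foxred2 (0.0448), Lingo3 (0.0904) and Smad3 (0.0959). Smad3, a transducer of activin and transforming growth factor beta, had -0.58 ± 0.13 in E1 and 1.34 ± 0.11 in E4 in the authors' deposited tables. Nearest to Socs2 were Cdkn1a (0.111), Sik1 (0.143) and Phf13 (0.167). The distance uses only 2 comparisons that share E0, and is a description. It rests on deposited log2 fold changes, which for Pim1 were smaller than the log2 ratios of recovered means, 4.87 in E1 and 3.18 in E4. Inhba had deposited values of 4.63 and 3.23, and Nptx2 of 4.80 and 3.10. The order of the genes near Pim1 may therefore depend on which values are used, which was not tested.

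The family members outside the 9, Socs1 and Socs4, did not pass the test. Socs1, the strongest Jak inhibitor of the family, had 11 reads in E0, 7 in E1 and 10 in E4, and the authors' deposited tables give a log2 fold change of 0.18 ± 0.54 for E1 and no adjusted p for E4. Socs4 had log2 fold changes of 0.64 ± 0.31 in E1 (adjusted p = 0.102 by DESeq2) and 0.03 ± 0.25 in E4 (adjusted p = 0.942) in the authors' deposited tables. Its recovered reads, from 44.2 to 74.6 in E0 and from 81.2 to 109 in E1, did not overlap, and the limma fit gave an adjusted p of 0.0461 for E1. Without the deepest or the shallowest E0 library this limma value became 0.0993 or 0.119. Without the middle or the shallowest E1 library it became 0.151 or 0.102, and without the shallowest E4 library 0.0557. With each other library left out it lay between 0.0297 and 0.0483.

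The rest of the pathway was read from 9 lists with 135 genes, of which 109 had an adjusted p in E1 and 103 in E4. In E1 31 were raised and 14 lowered, or 41.3% beside 35.5% of all genes tested. In E4 27 were raised and 18 lowered, or 43.7% beside 39%. The lists were chosen with earlier results of these data known. Their median log2 fold changes were 0.18 in E1 and 0.10 in E4.

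**Figure D4:**
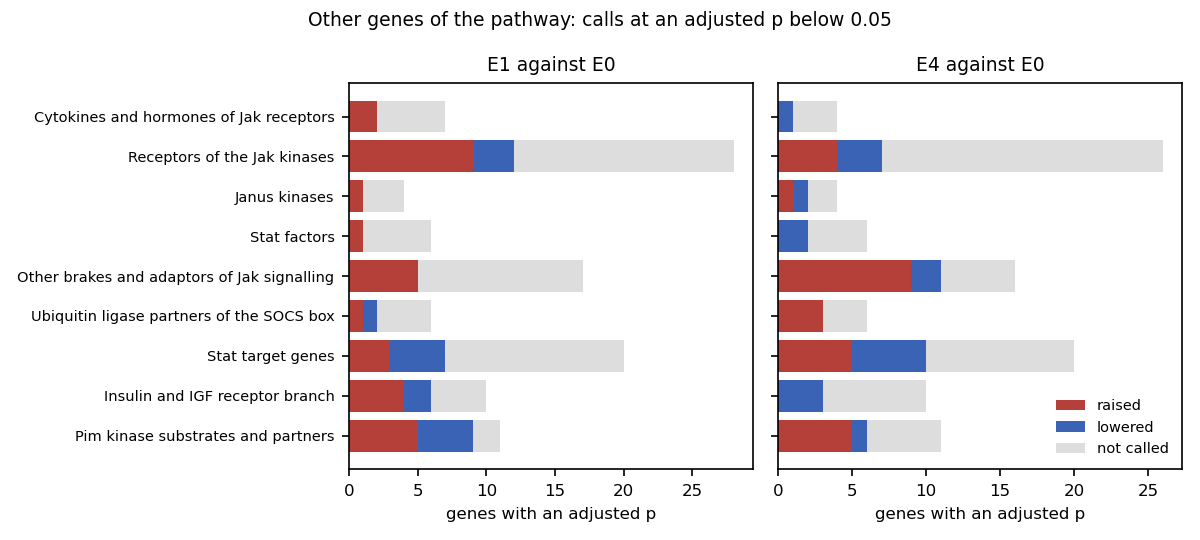
Number of genes of each list that were raised, lowered or not called at an adjusted p below 0.05 in the authors' deposited tables, E1 against E0 on the left and E4 against E0 on the right. Bars count genes with an adjusted p. Receptors have the longest bars, with 9 raised and 3 lowered of 28 in E1.

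Of 27 cytokines and hormones that signal through Jak receptors, 7 were read often enough to be tested in E1 and 4 in E4. Il11, a cytokine of the interleukin 6 family, rose in E1 with a log2 fold change of 5.02 ± 0.41 in the authors' deposited table (adjusted p = 2.39e-32 by DESeq2), and had no adjusted p in E4. Lif, of the same family, had 8.83 to 18.1 normalised reads in E0, 29.8 to 43.1 in E1 and 12.1 to 25.1 in E4. Its rise in E1 passed (1.19 ± 0.46 in the authors' deposited table, adjusted p = 0.0289) and its value in E4 did not (0.27 ± 0.39). Thpo, thrombopoietin, fell in E4 by 0.87 on the log2 scale in the authors' deposited table (adjusted p = 0.00347).

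Among the receptors, 9 rose and 3 fell of 28 tested in E1, and 4 rose and 3 fell of 26 in E4. Prlr, the prolactin receptor, rose in both, by 2.68 ± 0.48 in E1 and 3.70 ± 0.34 in E4 on the log2 scale in the authors' deposited tables. Lepr, the leptin receptor, had 7.89 to 10.7 normalised reads in E0, 138 to 318 in E1 and 7.86 to 16.4 in E4. Csf2ra, a subunit of the receptor for granulocyte and macrophage colony-stimulating factor, had 93.8 to 107 in E0, 319 to 416 in E1 and 123 to 154 in E4. Il6ra, which binds interleukin 6, had 50.5 to 81.3 in E0, 77.6 to 119 in E1 and 217 to 242 in E4. The E1 libraries of Lepr and Csf2ra lay above those of both other groups, whereas those of Il6ra were highest in E4. Il6st, which encodes the shared signalling subunit gp130, did not pass in either (log2 fold changes of -0.15 ± 0.13 and -0.09 ± 0.11 in the authors' deposited tables).

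Of the 4 Janus kinases, Jak2 alone rose in E1 (0.55 ± 0.18 on the log2 scale, adjusted p = 0.00927 by DESeq2, in the authors' deposited table). In E4 Jak1 rose by 0.30 ± 0.09 and Tyk2 fell by 0.93 on the log2 scale in the authors' deposited table (adjusted p = 0.00212 and 2.06e-06). Of 6 Stat genes tested, Stat3 rose in E1 (0.46 ± 0.13, adjusted p = 0.00185) in the authors' deposited table. Stat2, a factor of the interferon response, fell in E4 by 0.90 on the log2 scale in the authors' deposited table (adjusted p = 2.2e-07). Stat5b, the factor best known for inducing Cish and Socs2, did not pass, with -0.07 ± 0.25 in E1 and -0.11 ± 0.18 in E4 in the authors' deposited tables.

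Of the other brakes and adaptors of Jak signalling, 5 of 17 tested rose and none fell in E1, and 9 rose and 2 fell of 16 in E4. Ptpn1 and Ptpn2, phosphatases that remove phosphate from Jak and Stat proteins, rose at both times. In the authors' deposited tables Ptpn1 had 0.47 ± 0.14 in E1 and 0.82 ± 0.12 in E4, and Ptpn2 had 0.90 ± 0.18 and 0.37 ± 0.14. Pias1, a SUMO ligase that restrains Stat factors, and Sh2b1, an adaptor that enhances Jak2, rose in E4 by 0.50 ± 0.12 and 0.44 ± 0.11 on the log2 scale in the authors' deposited table. Of 6 genes for partners of the SOCS box, 1 rose and 1 fell in E1 and 3 rose in E4. The scaffold Cul5 rose in E4 by 0.55 ± 0.12 (adjusted p = 2.64e-05 by DESeq2), Rnf7 by 0.42 ± 0.12 and Cul2 by 0.33 ± 0.13, each in the authors' deposited table. Tceb2, elongin B, fell in E1 by 0.54 on the log2 scale in the authors' deposited table (adjusted p = 0.00101).

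Of 20 known Stat target genes, 3 rose and 4 fell in E1, and 5 rose and 5 fell in E4. Junb, an AP-1 subunit, rose by 3.31 ± 0.13 in E1 and 0.87 ± 0.13 in E4 on the log2 scale in the authors' deposited tables. Cebpb, a leucine zipper factor, had 184 to 199 normalised reads in E0, 209 to 412 in E1 and 656 to 897 in E4. Bcl6, a transcriptional repressor, fell by 0.41 in E1 and by 1.55 in E4 on the log2 scale in the authors' deposited tables. Serpina3n, a secreted protease inhibitor raised in reactive astrocytes, fell by 0.67 in E1 and rose by 1.12 ± 0.11 in E4 on the log2 scale in the authors' deposited tables.

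In the insulin and IGF branch, on which Socs6 and Socs7 are known to act, 4 rose and 2 fell of 10 in E1, and none rose and 3 fell in E4. Irs2, an insulin receptor substrate, rose by 1.41 ± 0.12 in E1 and fell by 0.48 in E4 on the log2 scale in the authors' deposited tables. Its relative Irs1 had 372 to 377 normalised reads in E0, 184 to 274 in E1 and 136 to 177 in E4. Igf1r, the receptor for IGF1, rose by 0.98 ± 0.17 in E1, and Igfbp5, a binding protein for IGF, fell by 1.04 in E1 and by 1.93 in E4 in the authors' deposited tables.

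Among substrates and partners of the Pim kinases, 5 rose and 4 fell of 11 tested in E1, and 5 rose and 1 fell in E4. Cdkn1a, the cell cycle inhibitor p21, had 40.6 to 64.7 normalised reads in E0, 293 to 404 in E1 and 144 to 151 in E4, with no overlap between the groups. Hsp90aa1 and Hsp90ab1, the cytosolic chaperones that stabilise Pim1 protein, rose at both times. In the authors' deposited tables Hsp90aa1 had 1.36 ± 0.11 in E1 and 0.74 ± 0.10 in E4, and Hsp90ab1 had 0.27 ± 0.08 and 0.39 ± 0.08. Eif4b, a translation factor that Pim kinases phosphorylate, fell by 0.66 in E1 on the log2 scale in the authors' deposited table (adjusted p = 5.64e-10 by DESeq2) and did not pass in E4 (-0.07 ± 0.09).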

How the data were processed

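Total RNA libraries of 9 mice were grouped by sample title. Per the submitters' processing notes, the tools were TopHat2 and DESeq2 and the build was mm9, with no versions. For the counter, annotation and strand setting nothing is given in the sources used here. The headers name the deposited signal baseMean. It was taken as the mean count over the libraries of a comparison after division by size factors. That each comparison has its own scale was worked out from the recovered size factors. The deposited log2 fold changes and SEs, the score (log2 fold change over SE) and the deposited p-values, raw and adjusted, are the authors' own. A gene was called at an adjusted p below 0.05, and a missing adjusted p was kept missing. The tables hold the authors' statistics and no counts per library, so edgeR was not run, as planned for tables of this kind. A spreadsheet had made dates of 27 symbols in the E1 table, which were left out of joins. E0 was taken as the shared group because both tables share its libraries.

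Each mean count is a sum of whole reads times the value of 1 read in each library, which genes with a single read give. Lattice reduction found the reads in the 3 E0, 3 E1 and 3 E4 libraries that give both printed means, for genes whose mean counts reach 5 in each table and for Socs1, which lies below that. A solution was kept where it was the only one in the search region. Reads were divided by size factors on the scale of the table for E4, and the factors of E1 were divided by 1.89, the median ratio of the E0 factors between the tables. The recovery, its acceptance rule, the limma 3.58.1 fit (R 4.3.3, voom weights, a shared spread over 3 groups) and the rule on transcript length were chosen after the data had been seen. The recovery and the limma fit were tested on simulated reads. Those had less spread between libraries than Pim1 and Socs3 in E1, whose SDs were 46.8% and 106% of the mean. The simulations therefore do not cover such spread. P-values measure the spread between 3 mice a group.

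For E4 against E1 a normal p was taken from the deposited log2 fold changes, as their difference over the root sum of squares of both SEs, with Benjamini-Hochberg adjustment over genes whose mean counts reach 10 in each table. Intervals are 95% normal intervals from the deposited SEs. They are centred on the deposited log2 fold changes, which for rarely read genes such as Socs3 were smaller than the ratios of recovered means. For such genes they are approximate. Alternatives were other filters on low counts, centring, a stricter threshold, a covariance for the shared E0 and leaving out each library. The members and lists were chosen with earlier results of these data known. The genes named are the 9 members, up to 4 genes with the smallest adjusted p of each list, Jak1, Jak2, Stat3, Stat5b, Il6st, Socs1 and Socs4, and the 3 genes nearest to each of 3 members. One gene that this rule names is not reported here. Python 3.11.15, numpy 2.4.6, pandas 2.3.3 and scipy 1.17.1 were used, with promoters from RefSeq GRCm38.p6 and gene models from GENCODE.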

Additional observations from a re-analysis of the deposited data

Results flagged for a closer look

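For 4 of the 9 genes the change over E0 differed between E1 and E4 by the test of the difference itself. The log2 difference of E4 from E1 was -1.34 for Socs2, -1.59 for Pim1, 1.80 for Pim2 and -1.07 for Pim3. Pim2 was the one of these that changed direction, lower than E0 in E1 and higher in E4. All 4 differences also passed in the limma fit to recovered reads and with each of the 9 libraries left out in turn. The summed markers of interneurons and endothelial cells were highest in E1, and their part in these differences was not tested.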

How the results depend on the processing

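No paired analysis was possible because the recovered libraries carry no mouse number. No fit with edgeR or DESeq2, and none with the replicate number as a block, was run. The edgeR fit was planned only for deposited counts per library. Over the other filters, the centring and the covariance of the shared E0, 5 to 6 members were called in E1, 5 to 6 in E4 and 4 in E4 against E1. Over the same filters and the centring, 4479 to 5531 of all genes kept were called in E1 and 5110 to 5633 in E4. The filter at a mean count of 50 leaves out Socs3. At an adjusted p below 0.01, 4 members were called in E1, since Socs3 and Pim2 lost the call, and 6 in E4. Of all genes tested, 4184 of 15660 were called at that threshold in E1 and 4344 of 14455 in E4. Of 135 single-gene values under alternatives that keep all libraries, 131 kept their direction and side of the threshold, 3 lost the call (Socs3 in E1 at 0.01 and in the limma fit, Pim2 in E1 at 0.01) and 1 changed sign: Socs5 in E4 against E1 became -0.011 (adjusted p = 0.964) with centred fold changes. With each library left out in turn, limma called 3 to 4 members in E1, 4 to 5 in E4 and 4 in every case in E4 against E1. Of the 9884 genes, these fits called 1763 to 2052 higher and 1277 to 1796 lower in E1. In E4 they called 1314 to 1681 higher and 1612 to 2097 lower. In E4 against E1 they called 1638 to 2094 higher and 2351 to 2633 lower. Of 126 such single-gene values, 118 kept their side of the threshold, 7 lost the call and 1 gained it (Socs3 in E1 without the middle E1 library). The losses were Pim2 in E1 in 5 cases, and Socs3 and Pim3 in E4 in 1 case each. Depth limits Cish, Socs1 and Socs3, above all in E1.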
